A study of Neurospora crassa with 12 samples.

Results

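Transcripts of 9 RNA interference (RNAi) genes of the filamentous fungus Neurospora crassa were followed through polyA RNA-seq libraries of growing mycelium. The genes, chosen by their locus tags out of the 9730 in the count tables, were qde-1 (NCU07534), qde-2 (NCU04730), dcl-1 (NCU08270), dcl-2 (NCU06766), qip (NCU00076), rrp-3 (NCU08435), sad-1 (NCU02178), sad-2 (NCU04294) and sms-2 (NCU09434). RefSeq's table for assembly NC12 pairs each of the 9 tags with that symbol. There were 3 strains with 4 libraries each. Strain N3944 (Δdim-5, labelled mat x with the dim-5 gene replaced by bar+) lacks the enzyme that methylates histone H3 at lysine 9, and with it, by the study's own account, all H3K9me3, which marks constitutive heterochromatin in this fungus. Strain NKL2 (ΔLGIIK9het25, labelled mat A, with hph in place of the region) lacks a large heterochromatic region. The wild type N150 (WT) is labelled mat A. All cultures were shaken for 16 h at 32 °C in minimal medium with 1.5% sucrose. The labels give 1 strain per genotype and do not say whether libraries of a strain came from separate cultures, so the p values measure the spread between libraries, which may be partly technical.

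N. crassa uses RNAi in a vegetative and a sexual pathway. In quelling, which acts in growing hyphae on repeated sequences, the RNA-dependent RNA polymerase QDE-1 makes double-stranded RNA, the dicers DCL-1 and DCL-2 cut it, and the Argonaute QDE-2 uses the small RNAs after the exonuclease QIP has removed the passenger strand. In meiotic silencing, which acts on DNA left unpaired in meiosis, the polymerase SAD-1, its partner SAD-2 and the Argonaute SMS-2 work with DCL-1 and QIP. DNA methylation at heterochromatin in this fungus is known to need DIM-5 and not the RNAi proteins.

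The polymerase gene qde-1 was lower in Δdim-5 than in ΔLGIIK9het25, and none of the rest of the 9 chosen RNAi genes was called between strains. Of these, sad-1, sad-2 and sms-2 were near the detection limit. Outside the 9, the meiotic silencing gene sad-3 was called higher in both mutants against WT, with limits given below. Levels are given in CPM, the reads on a gene scaled to a common library size by the TMM method, which balances libraries against each other. Since CPM is not corrected for transcript length, levels are compared between strains and not between genes. A filter on low counts kept 8496 genes for the edgeR quasi-likelihood test, and a gene was called at a Benjamini-Hochberg adjusted p under 0.05 over all of them. Of the 9 RNAi genes, 6 passed the filter, with 6.75 to 122 CPM in single libraries. In ΔLGIIK9het25 against WT, 0 RNAi genes were called, where 4.32% of all tested genes were (3.08% higher and 1.24% lower). DESeq2, which called 617 of the 8496 genes there, and limma-voom, which called 306, also called 0 RNAi genes. At an unadjusted p under 0.05 there was 1, dcl-1. In Δdim-5 against WT, 0 RNAi genes were called by these 3 tools, where edgeR called 16.5% of all tested genes (9% higher and 7.53% lower). All alternative settings, with DESeq2 and limma-voom among them, called 1061 to 1821 genes there. At an unadjusted p under 0.05 there was 1 RNAi gene, qde-1. In Δdim-5 against ΔLGIIK9het25, 1 was called, again qde-1, which was lower, where 16.7% of all tested genes were called (8.83% higher and 7.92% lower). Shares of all tested genes at an unadjusted p under 0.05 are not given, so counts at that threshold, here and below, have nothing to be read against. The comparisons share strains, so they are not independent of each other. Median log2 fold changes of the 6 tested RNAi genes were 0.14, 0.09 and -0.19 in these 3 comparisons, and those of all tested genes were -0.01, 0.01 and 0.02.

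The libraries held 10920478 to 23925695 reads in genes in Δdim-5, 8518301 to 16039760 in ΔLGIIK9het25 and 7164944 to 12423603 in WT. Reads outside genes made up 3.62% to 7.29% of a library in Δdim-5, 5.17% to 31.8% in ΔLGIIK9het25 and 8.85% to 36.8% in WT. Depth and reads outside genes thus varied with strain, and for the latter Δdim-5 and WT did not overlap, so their part cannot be told apart from strain. As a check of the labels, dim-5 (NCU04402) stood at 0.0335 ± 0.0403 CPM in Δdim-5, 7.21 ± 1.07 CPM in ΔLGIIK9het25 and 7.29 ± 0.737 CPM in WT (SD, n = 4), so it was nearly absent in the strain labelled as its deletion. All 5 hyphal markers, such as the Woronin body gene hex-1, were detected in every strain, with summed levels of 3806 to 5449 CPM in Δdim-5, 4268 to 8932 CPM in ΔLGIIK9het25 and 5362 to 7734 CPM in WT. The 7 conidiation markers were detected as well, with summed levels of 775 to 16035 CPM in Δdim-5, 388 to 1926 CPM in ΔLGIIK9het25 and 716 to 2723 CPM in WT. In Δdim-5 replicate 2 the hydrophobin gene eas alone had 14361 CPM. No conidiation marker was called between strains by edgeR, with 0 at an unadjusted p under 0.05 in ΔLGIIK9het25 against WT and 1 in each comparison of Δdim-5. In Δdim-5 against WT all 7 log2 fold changes were nonetheless positive, from 0.12 to 2.30 with a median of 0.87. They ran from -0.61 to 1.14 in ΔLGIIK9het25 against WT and from -0.20 to 2.91 between the mutants. The part of conidiation in the RNAi gene levels was not tested.

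The polymerase gene qde-1 had its lowest levels in Δdim-5 and its highest in ΔLGIIK9het25. In replicates 1 to 4 it had 21.8, 22.5, 20.9 and 24.0 CPM in Δdim-5, 35.0, 34.8, 26.7 and 33.8 CPM in ΔLGIIK9het25, and 28.1, 28.8, 28.1 and 28.7 CPM in WT. Every Δdim-5 library lay below every library of the other strains, while ΔLGIIK9het25 overlapped WT through its replicate 3. Between the mutants qde-1 was lower in Δdim-5, with a log2 fold change of -0.55 (SE 0.13, edgeR adjusted p = 0.0125), which is 0.685-fold with a 95% interval of 0.563 to 0.833. Against WT the fall was smaller and was not called (log2 fold change -0.35, SE 0.13, 95% interval -0.63 to -0.07, adjusted p = 0.0876). The ΔLGIIK9het25 value against WT was also not called (log2 fold change 0.20, SE 0.13, 95% interval -0.09 to 0.48, adjusted p = 0.545). The call between the mutants therefore rested on values on either side of WT, neither of which was itself past the threshold. Of the 5 hyphal markers, so, a hyphal fusion gene, was also called lower between the mutants (log2 fold change -0.64, SE 0.14, adjusted p = 0.0085), and gs-1, a glucan synthesis gene, was called lower in Δdim-5 against WT (log2 fold change -0.52, SE 0.16, adjusted p = 0.0397). The share called lower among all tested genes was 7.92% between the mutants and 7.53% in Δdim-5 against WT. The marker chs-1 went the other way without being called, with log2 fold changes of 0.19 between the mutants and 0.13 in Δdim-5 against WT (SE 0.15 in each). The part of the hyphal markers in the qde-1 difference was not tested.

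**Figure D1:**
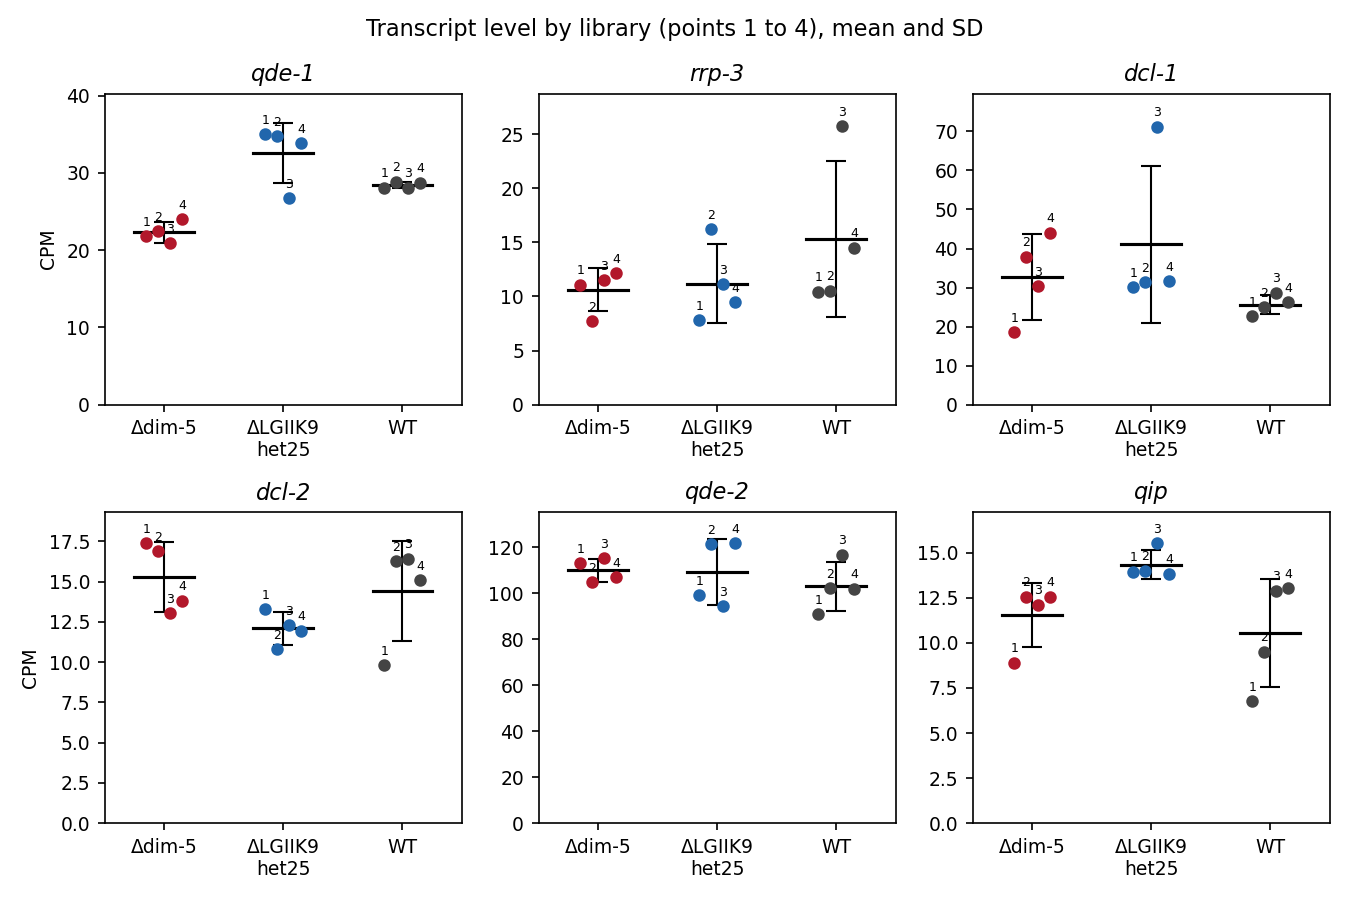
Levels in CPM (y axis from 0, its scale differing between panels) of the 6 tested RNAi genes in each library of Δdim-5, ΔLGIIK9het25 and WT, with points numbered by replicate, horizontal lines for means and bars for SD (n = 4). The qde-1 points of Δdim-5, at 20.9 to 24.0 CPM, lie below all others, and replicate 3 of ΔLGIIK9het25 stands at 71.2 CPM for dcl-1.

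The qde-1 call between the mutants held under all 22 alternatives run, with log2 fold changes of -0.66 to -0.51 and adjusted p from 0.000778 to 0.0399. Without ΔLGIIK9het25 replicate 3, the library nearest to WT, the log2 fold change was -0.66 (adjusted p = 0.00702). In Δdim-5 against WT the log2 fold change stayed between -0.42 and -0.30 and the adjusted p between 0.0617 and 0.238. The 3 strains thus kept their order under these alternatives, and the call was made only for the comparison at its ends.

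**Figure D2:**
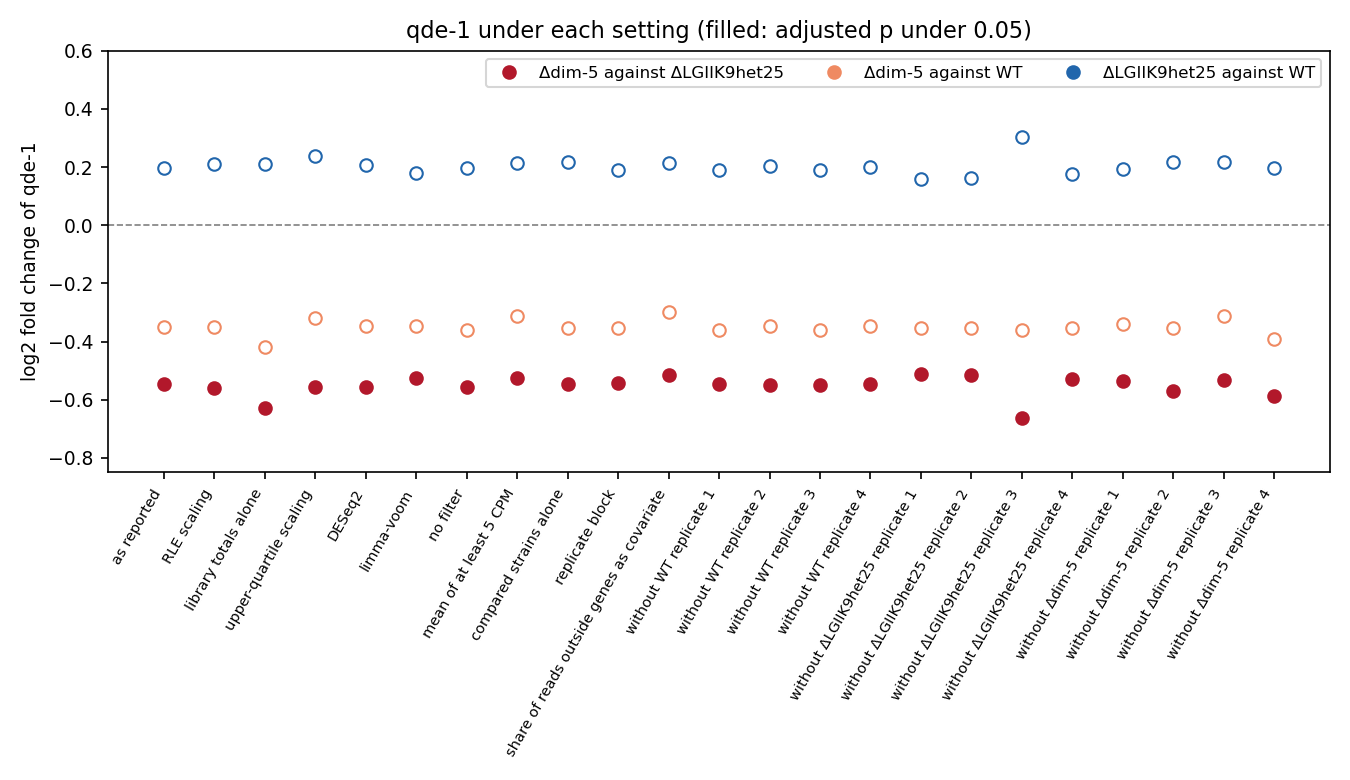
The log2 fold change of qde-1 (y axis) in the 3 comparisons under the setting as reported and each of the 22 alternatives (x axis), with filled points where the adjusted p was under 0.05. Only the points of Δdim-5 against ΔLGIIK9het25, at -0.66 to -0.51, are filled.

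The other polymerase gene that passed the filter, rrp-3, was not called in any comparison and varied widely in WT. RRP-3 is the third RNA-dependent RNA polymerase of this fungus and has no settled role in either pathway. In replicates 1 to 4 it had 11.1, 7.71, 11.5 and 12.1 CPM in Δdim-5, 7.82, 16.2, 11.1 and 9.48 CPM in ΔLGIIK9het25, and 10.4, 10.5, 25.7 and 14.5 CPM in WT. WT replicate 3 was the highest of the 12, and all 3 strains overlapped. The log2 fold change was -0.53 in Δdim-5 against WT (SE 0.31, edgeR adjusted p = 0.279) and -0.46 in ΔLGIIK9het25 against WT (SE 0.31, adjusted p = 0.555). Between the mutants it was -0.07 (SE 0.31, adjusted p = 0.911). Without WT replicate 3 the log2 fold changes against WT were -0.16 in Δdim-5 and -0.087 in ΔLGIIK9het25, and without any other single library they stayed negative and uncalled. The 95% interval of the fold in Δdim-5 against WT ran from 0.432 to 1.11, which spans both a fall and a small rise.

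Of the dicer genes, dcl-1, which serves both pathways, was the more variable. In replicates 1 to 4 it had 18.5, 37.9, 30.3 and 44.1 CPM in Δdim-5, 30.1, 31.4, 71.2 and 31.6 CPM in ΔLGIIK9het25, and 22.6, 25.04, 28.7 and 26.2 CPM in WT. All 4 ΔLGIIK9het25 libraries lay above all WT libraries, 3 of them only slightly, while Δdim-5 spread across the other strains. The log2 fold change in ΔLGIIK9het25 against WT was 0.68 (SE 0.30, 95% interval 0.02 to 1.34, edgeR adjusted p = 0.294), and without ΔLGIIK9het25 replicate 3 it was 0.30 (adjusted p = 0.732). In Δdim-5 against WT it was 0.35 (SE 0.30, 95% interval -0.30 to 1.01, adjusted p = 0.472). Between the mutants it was -0.33 (SE 0.30, adjusted p = 0.506), and without ΔLGIIK9het25 replicate 3 it was 0.05. The SE of dcl-1 exceeded the median SE over all tested genes, which was 0.23. The other dicer gene, dcl-2, which carries most of the dicing in quelling, had 17.4, 16.9, 13.0 and 13.8 CPM in Δdim-5, 13.3, 10.8, 12.3 and 11.96 CPM in ΔLGIIK9het25, and 9.83, 16.3, 16.4 and 15.1 CPM in WT. The ΔLGIIK9het25 libraries were low and close together, WT replicate 1 was the lowest of all, and every pair of strains overlapped. Its log2 fold changes were 0.09 in Δdim-5 against WT (SE 0.20, adjusted p = 0.809) and -0.25 in ΔLGIIK9het25 against WT (SE 0.20, adjusted p = 0.631). Between Δdim-5 and ΔLGIIK9het25 it was 0.33 (SE 0.20, adjusted p = 0.273).

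The Argonaute gene qde-2, which together with dcl-2 is known to be induced by double-stranded RNA, was not called in any comparison. In replicates 1 to 4 it had 113, 105, 115 and 107 CPM in Δdim-5, 99.1, 121, 94.3 and 122 CPM in ΔLGIIK9het25, and 90.9, 102, 117 and 102 CPM in WT. The 3 strains overlapped, and the Δdim-5 libraries were the closest together. The fold was 1.07 in Δdim-5 against WT with a 95% interval of 0.878 to 1.30, and 1.06 in ΔLGIIK9het25 against WT with an interval of 0.871 to 1.29 (edgeR adjusted p = 0.673 and 0.846). Between the mutants the fold was 1.01 with an interval of 0.828 to 1.23 (adjusted p = 0.967). All 3 intervals lay on either side of no change.

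The exonuclease gene qip was highest in ΔLGIIK9het25 without being called. In replicates 1 to 4 it had 8.90, 12.6, 12.1 and 12.6 CPM in Δdim-5, 13.9, 14.0, 15.5 and 13.8 CPM in ΔLGIIK9het25, and 6.75, 9.52, 12.9 and 13.0 CPM in WT. Every ΔLGIIK9het25 library lay above every library of the other strains, and the WT libraries were widely spread. The log2 fold change was 0.44 in ΔLGIIK9het25 against WT (SE 0.22, 95% interval -0.04 to 0.92, edgeR adjusted p = 0.364), 0.13 in Δdim-5 against WT (SE 0.22, adjusted p = 0.738) and -0.31 in Δdim-5 against ΔLGIIK9het25 (SE 0.22, adjusted p = 0.373).

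Libraries of the compared strains did not overlap in 5 of the 18 comparisons of a tested RNAi gene. They were dcl-1 and qip in ΔLGIIK9het25 against WT, where 11.6% of all tested genes did not overlap (6.47% higher and 5.16% lower), qde-1 in Δdim-5 against WT, where 20.3% did not (10.9% higher and 9.43% lower), and qde-1 and qip in Δdim-5 against ΔLGIIK9het25, where 21.3% did not (10.5% higher and 10.7% lower). With 6 genes per comparison these counts of 2, 1 and 2 are too small to be read against those shares.

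**Figure D3:**
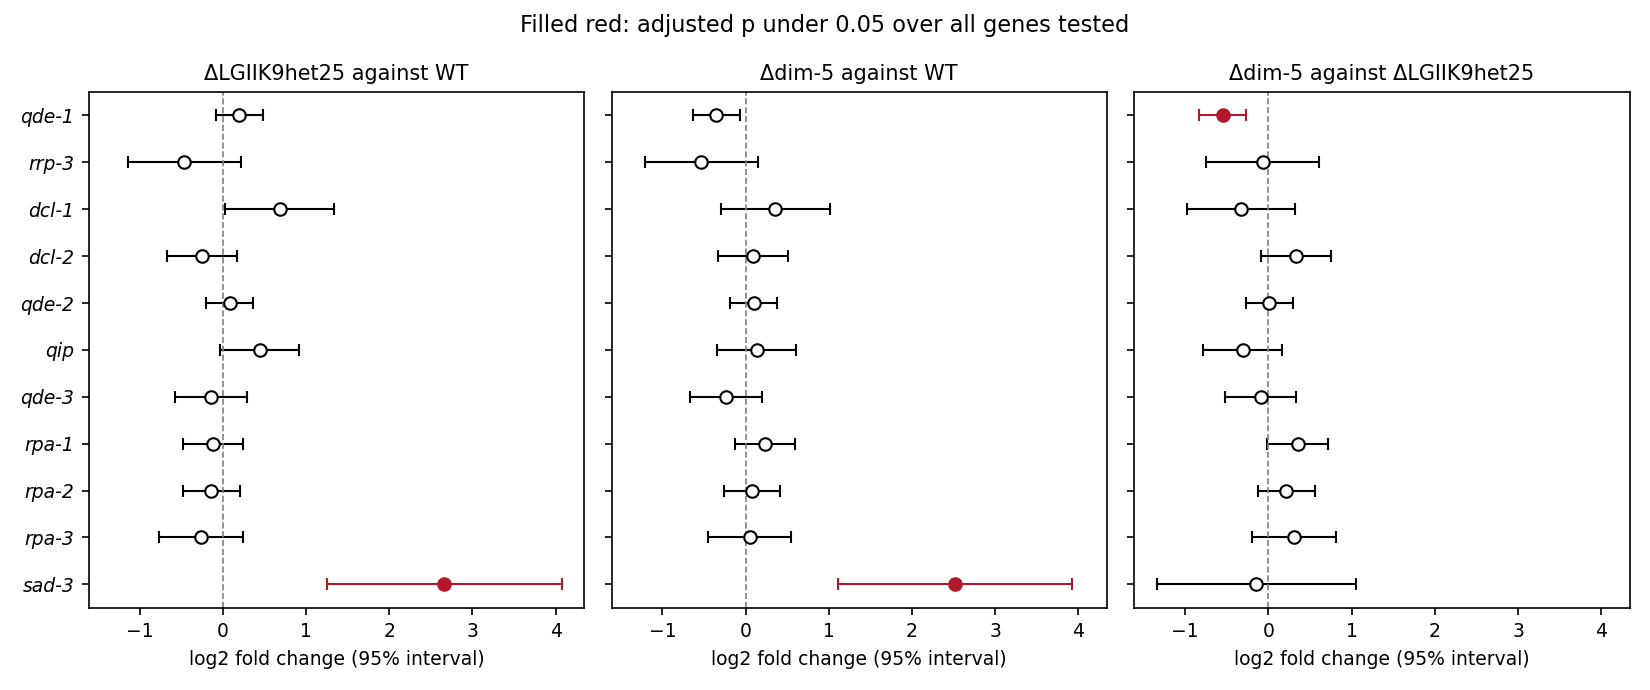
The log2 fold changes (x axis) with 95% intervals of the 6 tested RNAi genes and 5 other pathway genes (rows) in the 3 comparisons, filled red where the edgeR adjusted p over all tested genes was under 0.05. Filled points are qde-1 in Δdim-5 against ΔLGIIK9het25, at -0.55, and sad-3 against WT, at 2.66 in ΔLGIIK9het25 and 2.52 in Δdim-5.

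The meiotic silencing genes sad-1, sad-2 and sms-2 fell below the filter, with at most 15 reads in any library. They were compared by exact two-sided permutation tests on CPM, 9 tests in all, in which 4 libraries against 4 can give no p below 0.0286. After Benjamini-Hochberg adjustment over the 9, a single difference at that smallest p would stand at 0.257, and 6 of the 9 would have to reach it to fall under 0.05, so the adjusted tests could not call 1 differing gene. The Argonaute gene sms-2 had 0, 15, 13 and 4 reads in Δdim-5, 7, 5, 9 and 6 reads in ΔLGIIK9het25, and 2, 1, 0 and 0 reads in WT. All 4 ΔLGIIK9het25 libraries were above all WT libraries, a separation seen for 6.47% of the genes that passed the filter. For sms-2, Δdim-5 ranged from no read to the highest of all. Its level was 0.488 ± 0.504 CPM in Δdim-5, 0.529 ± 0.0524 CPM in ΔLGIIK9het25 and 0.0805 ± 0.0937 CPM in WT (SD, n = 4). The exact permutation p was 0.0286 for ΔLGIIK9het25 against WT (adjusted p = 0.129) and 0.257 for Δdim-5 against WT (adjusted p = 0.331). The pooled reads, 32 in Δdim-5, 27 in ΔLGIIK9het25 and 3 in WT, gave a ratio of 6.36 for Δdim-5 over WT with a 95% interval of 1.99 to 32.5, and of 7.06 for ΔLGIIK9het25 over WT with an interval of 2.17 to 36.4. These intervals cover counting error alone.

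The SAD-2 protein is needed to place SAD-1 at the nuclear edge, and the gene sad-2 had 1, 3, 2 and 3 reads in Δdim-5, 7, 0, 6 and 7 reads in ΔLGIIK9het25, and 1, 0, 1 and 0 reads in WT. In CPM all 4 Δdim-5 libraries were above all WT libraries, a separation seen for 10.9% of the genes that passed the filter. The nearest, replicate 1 of each strain, had 1 read each (0.100 against 0.0877 CPM), so scaling alone put them in order. ΔLGIIK9het25 held both the highest libraries and a library with no read. The pooled ratio was 2.68 for Δdim-5 over WT (counting interval 0.555 to 25.5) and 7.84 for ΔLGIIK9het25 over WT (counting interval 1.91 to 69.2). The exact permutation p values were 0.0286 and 0.143 (adjusted p = 0.129 and 0.30), the first resting on that order of 1 read against 1. The polymerase gene sad-1 had 0, 9, 4 and 4 reads in Δdim-5, 14, 15, 3 and 4 reads in ΔLGIIK9het25, and 6, 0, 4 and 0 reads in WT, and the strains overlapped. Its pooled ratio was 1.01 for Δdim-5 over WT (counting interval 0.438 to 2.48, exact permutation adjusted p = 0.836) and 2.82 for ΔLGIIK9het25 over WT (counting interval 1.37 to 6.38, adjusted p = 0.30). With no filter on low counts, edgeR called none of these 3 genes in any comparison, with adjusted p from 0.145 to 0.946. In that edgeR fit across all genes, those at an unadjusted p under 0.05 were sms-2 in Δdim-5 against WT (0.0352) and, in ΔLGIIK9het25 against WT, sad-2 (0.0159) and sms-2 (0.0295). Whether these genes differ between strains was not settled at this depth.

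**Figure D4:**
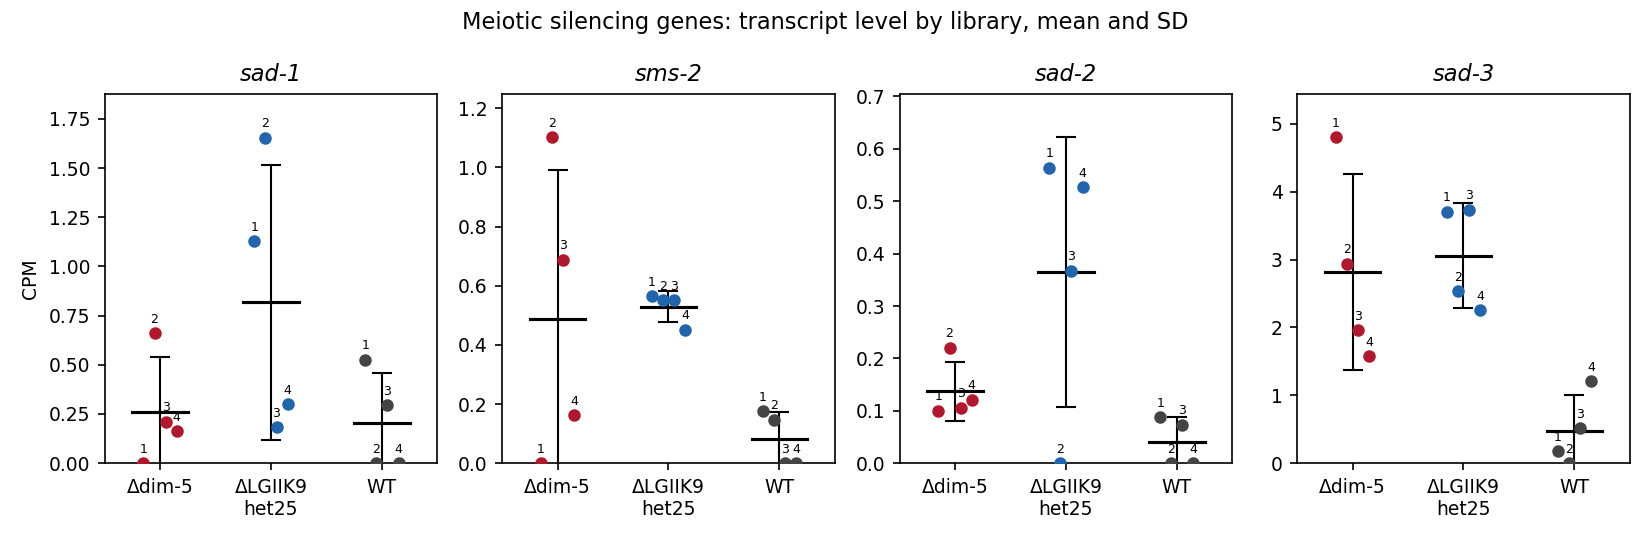
Levels in CPM (y axis from 0, its scale differing between panels) of the meiotic silencing genes sad-1, sms-2, sad-2 and sad-3 in each library of Δdim-5, ΔLGIIK9het25 and WT, with points numbered by replicate, lines for means and bars for SD (n = 4). The sad-3 points of both mutants, at 1.58 to 4.80 CPM, lie above those of WT, at 0 to 1.21 CPM.

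Other pathway genes were taken from a list of 12, of which 5 were found by symbol in the gene table and were tested. Of these, 1 was called higher in ΔLGIIK9het25 against WT, 1 higher in Δdim-5 against WT and 0 between the mutants by edgeR, where 0 also had an unadjusted p under 0.05. Among all tested genes, 3.08% were called higher in ΔLGIIK9het25 against WT and 9% in Δdim-5 against WT, and 16.7% were called between the mutants. With 5 genes these counts are too small to be read against those shares. The called pathway gene was sad-3 (NCU09211), which encodes a helicase-like protein of meiotic silencing. In replicates 1 to 4 it had 4.80, 2.94, 1.96 and 1.58 CPM in Δdim-5, 3.71, 2.54, 3.73 and 2.26 CPM in ΔLGIIK9het25, and 0.176, 0, 0.516 and 1.21 CPM in WT. All 8 mutant libraries were above all WT libraries. Such a separation from WT was seen for 6.47% of all tested genes in ΔLGIIK9het25 and 10.9% in Δdim-5, each taken alone. The log2 fold change against WT was 2.52 in Δdim-5 (SE 0.65, edgeR adjusted p = 0.0184) and 2.66 in ΔLGIIK9het25 (SE 0.65, adjusted p = 0.036). From 164 reads in Δdim-5, 160 in ΔLGIIK9het25 and 19 in WT, the pooled ratio over WT was 5.15 for Δdim-5 (counting interval 3.19 to 8.77) and 6.61 for ΔLGIIK9het25 (counting interval 4.09 to 11.3). In WT replicates 1 to 4 sad-3 had 2, 0, 7 and 10 reads, so it passed the filter on low counts only through the mutant libraries, where it was higher. Its calls, separation and ratios against WT are to be read with that limit. Since the mutants share the WT libraries, their rises are not independent. The ΔLGIIK9het25 call was lost without WT replicates 1, 2 or 3 (adjusted p = 0.0817, 0.0611 and 0.0805) and without ΔLGIIK9het25 replicates 1, 3 or 4 (adjusted p = 0.0849, 0.0897 and 0.06), and the Δdim-5 call without WT replicate 1 (adjusted p = 0.0506). The ΔLGIIK9het25 call was also lost when only the libraries of these strains were fitted (adjusted p = 0.0581), and the Δdim-5 call with each library's reads outside genes as a covariate (adjusted p = 0.0607). Under all alternatives in which sad-3 was tested, its log2 fold change stayed at 2.15 to 3.34 in Δdim-5 and 2.33 to 3.49 in ΔLGIIK9het25 against WT, the highest of each without WT replicate 4.

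Of the markers of sexual development, app was called higher in ΔLGIIK9het25 than in both other strains, though its libraries overlapped those of WT. The summed level of 7 such genes ranged over 119 to 175 CPM in Δdim-5, 209 to 512 CPM in ΔLGIIK9het25 and 152 to 253 CPM in WT, and none was without reads in any strain. Most of the sum was asd-1, with means of 85.6 CPM in Δdim-5, 211 CPM in ΔLGIIK9het25 and 157 CPM in WT. In ΔLGIIK9het25 replicate 2 asd-1 alone had 404 CPM. Of the 6 that passed the filter, 1 was called higher in ΔLGIIK9het25 against WT, namely app, at 9.21 ± 7.16 CPM against 1.02 ± 1.09 CPM in WT (edgeR adjusted p = 0.0459), and 0 were called in Δdim-5 against WT, with 1 at an unadjusted p under 0.05. Between the mutants, app and asd-1 were called lower in Δdim-5. The part of sexual development in the levels of sad-1, sad-2, sms-2 and sad-3 was not tested.

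The RecQ helicase gene qde-3, which acts with QDE-1 upstream of the dicers, had 15.0 ± 3.71 CPM in Δdim-5, 16.0 ± 0.49 CPM in ΔLGIIK9het25 and 17.7 ± 2.87 CPM in WT (SD, n = 4). Its log2 fold change was -0.23 in Δdim-5 against WT (SE 0.20, edgeR adjusted p = 0.465) and -0.14 in ΔLGIIK9het25 against WT (SE 0.20, adjusted p = 0.824). The genes rpa-1, rpa-2 and rpa-3 encode the single-stranded DNA binding complex RPA, which QDE-1 and QDE-3 are known to work with. None was called, and their log2 fold changes ran from -0.26 to 0.35 over the 3 comparisons.

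The 6 tested RNAi genes differed in their patterns across libraries. Across the 12 libraries, Pearson's r of log2 CPM between pairs of them ran from -0.45 for qde-1 with dcl-2 to 0.67 for dcl-1 with qip, with a median of 0.08 over 15 pairs. These values describe libraries that fall into 3 strains, were not tested and have no value for gene pairs at large beside them. Over all tested genes, the pattern most like qde-1 across the 12 libraries was that of NCU10035 (r = 0.93). The closest pattern belonged to NCU08358 for qde-2 (r = 0.91), to NCU01111 for dcl-1 (r = 0.90), to NCU10342 for dcl-2 (r = 0.86), to NCU08032 for qip (r = 0.90) and to NCU09864 for rrp-3 (r = 0.96). Each r is the highest among all tested genes.

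Genes next to the 9 RNAi genes in the reference order were also read. Of 18 neighbours, 16 were tested. In ΔLGIIK9het25 against WT, 0 were called by edgeR, where 4.32% of all tested genes were, with 1 at an unadjusted p under 0.05. In each of the other comparisons 1 was called, the gene NCU16695 beside qde-1, with 4 at an unadjusted p under 0.05. The share called among all tested genes was 16.5% in Δdim-5 against WT and 16.7% between the mutants. Shares of all genes at an unadjusted p under 0.05 are not given here, so those counts have nothing to be read against. NCU16695 had 10.2 ± 3.41 CPM in Δdim-5, 3.56 ± 0.785 CPM in ΔLGIIK9het25 and 4.08 ± 1.95 CPM in WT (SD, n = 4). It was thus higher in Δdim-5 (log2 fold change 1.30 against WT, SE 0.35, adjusted p = 0.0221, and 1.52 against ΔLGIIK9het25, SE 0.35, adjusted p = 0.0103), where qde-1 was lowest. In the reference table dcl-1 overlaps pdx-4 and qip overlaps tim14, and because reads were counted without strand, levels of dcl-1 and qip are uncertain to that extent. In ΔLGIIK9het25 replicate 3, where dcl-1 stood at 71.2 CPM, pdx-4 had 271 CPM, beside 373, 345 and 256 CPM in replicates 1, 2 and 4. The part of pdx-4 reads in the dcl-1 level was not tested.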

How the data were processed

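Each of the 12 libraries came with raw counts, reads per gene, deposited by the authors in a table of its own. HISAT2, HTSeq and DESeq2 are named in the submitters' processing notes, and the deposited files' names say that counting ignored strand. The sources used here name no version, genome build or annotation, so no gene lengths were used. Coordinates of the NC12 reference served only to find neighbouring and overlapping genes. Whether the counts rest on the same annotation is not known. The library kit was directional and single reads were 118 nt long, per the labels. Libraries were grouped and numbered by their titles. The 5 closing entries without a gene were left out. Reads ambiguous between genes were 1.78% to 3.00% of a library, and unaligned reads 6.25% to 19.6%. No pair of libraries agreed within sampling noise (smallest chi-square per degree of freedom 20.1).

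Genes were filtered with filterByExpr and tested in R 4.3.3 with edgeR 4.0.16 (glmQLFit and glmQLFTest, TMM scaling), with all 12 libraries in 1 fit, no covariate and 9 residual degrees of freedom. Each SE came from the F statistic of its fold change, and each 95% interval from the SE. Alternatives used DESeq2 1.42.0 and limma 3.58.1. The fits were tested on simulated data. Pooled ratios carry exact 95% counting intervals on reads summed over the libraries of a strain. These intervals cover counting error only and leave out the spread between libraries. The reads also carry no molecular identifiers.

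The 9 RNAi genes and the lists were chosen with earlier results of these data known. Named genes were these 9, dim-5, the other pathway genes found by symbol, the adjacent genes, and for each tested RNAi gene the 1 gene with the highest Pearson's r. Marker genes, a separate list, are named as examples or where called. Of 12 other pathway genes, 7 without a matching symbol were not analysed here.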

Additional observations from a re-analysis of the deposited data

Results flagged for a closer look

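A library was singled out where its gap to the nearest of the other 3 libraries of its strain, as a share of the strain's range in CPM, exceeded Dixon's 95% critical value for 4 samples. This held for 6 of 42 groups, the 9 RNAi genes and 5 other pathway genes in 3 strains, where chance singles out about 1 in 20, or 2.1. Replicate 3 of ΔLGIIK9het25 accounted for 3 of the 6. In that library qde-1 had 26.7 CPM, against 33.8 to 35.0 CPM in the other libraries of the strain, dcl-1 had 71.2 CPM, against 30.1 to 31.6 CPM, and qip had 15.5 CPM, against 13.8 to 14.0 CPM. Its mean correlation with the other libraries of its strain was 0.971, where such means ran from 0.956 to 0.973 over all libraries, this library among them. In replicate 4 of ΔLGIIK9het25, sms-2 had 0.451 CPM, against 0.551 to 0.564 CPM, a gap that amounts to 6 reads beside 5 to 9. In replicate 2 of ΔLGIIK9het25, rpa-3 had 77.8 CPM, against 43.9 to 48.4 CPM. In replicate 1 of Δdim-5, qip had 8.90 CPM, against 12.1 to 12.6 CPM.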

How the results depend on the processing

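The counts of called RNAi genes, 0, 0 and 1 in ΔLGIIK9het25 against WT, Δdim-5 against WT and Δdim-5 against ΔLGIIK9het25, were the same under all 22 alternatives: 3 scalings, DESeq2, limma-voom, 2 filters, the compared strains alone, the replicate block, a covariate for reads outside genes, and leaving out each library. Among the other pathway genes, where sad-3 was the 1 call, the count in ΔLGIIK9het25 against WT was 0 with a minimum mean level of 5 CPM (which removes sad-3), with the compared strains alone and with the replicate block, and 0 to 1 without single libraries. In Δdim-5 against WT it was 0 with that filter and with the covariate, and 0 to 1 without single libraries. Over all genes, 367 were called in ΔLGIIK9het25 against WT, 617 with DESeq2, 196 with the filter at 5 CPM and 216 to 402 without single libraries. Between the mutants 1423 were called, and 939 to 1452 without single libraries, the lowest without ΔLGIIK9het25 replicate 4.

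The sign turned in 32 cases, each with no call before or after. For qde-2 between the mutants, 0.01 became -0.0014 with RLE, -0.077 with library totals alone, -0.00040 with upper-quartile scaling and -0.00075 with DESeq2, and -0.085 to 0.065 without single libraries. For rrp-3 it became 0.012 with limma-voom. Values were -0.0013 for rpa-2 and -0.034 for rpa-3 in Δdim-5 against WT with library totals alone, and 0.022 and 0.0095 for dim-5 in ΔLGIIK9het25 against WT with upper-quartile scaling and the covariate. Without single libraries, log2 fold changes in Δdim-5 against WT ranged over -0.065 to 0.16 for dcl-2, -0.037 to 0.25 for qip, -0.052 to 0.16 for rpa-2 and -0.094 to 0.15 for rpa-3. Between the mutants they ranged over -0.51 to 0.047 for dcl-1, -0.21 to 0.16 for rrp-3, -0.23 to 0.057 for qde-3 and -0.52 to 0.059 for sad-3, and in ΔLGIIK9het25 against WT over -0.10 to 0.057 for dim-5. CPM differences ranged over -0.0807 to 0.16 for sad-1 in Δdim-5 minus WT and -0.246 to 0.121 for sms-2 in Δdim-5 minus ΔLGIIK9het25. The cause was not tested.

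The replicate numbers of the titles were not shown to pair libraries. Deviations of same-numbered libraries from their strain means correlated at -0.20 to 0.46 in ΔLGIIK9het25 and WT, -0.05 to 0.03 in Δdim-5 and WT, and 0.07 to 0.09 between the mutants, and 4, 0 and 2 of 8 libraries correlated best with their own number. The names of the deposited files carry other replicate numbers, which were not used. With the replicate block 371, 1504 and 1467 genes were called, and sad-3 in ΔLGIIK9het25 against WT had a log2 fold change of 2.67 (adjusted p = 0.0771).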
